A study of Mus musculus with 18 samples.

Results

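The transcripts of the histone deacetylases Hdac1, Hdac2, Hdac3, Hdac4, Hdac5, Hdac6, Hdac7, Hdac8, Hdac10 and Hdac11 were measured by RNA-seq in mouse peritoneal macrophages. These 10 genes were taken by their symbols, which were matched to Ensembl mouse gene numbers, out of 13598 genes with a value. Of the 10, 9 had rows under their own number, and 8 of those reached 1 FPKM in at least 3 of the 18 libraries and were tested among 9707 genes. Hdac5 had no row under its own number, and its value was taken from the events at its locus. Hdac11 did not reach 1 FPKM in any library and was not tested.

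The macrophages came from TLR4-WT mice and from TLR4-K730R and TLR4-K810R mice, in which a lysine of the TIR domain of TLR4 is replaced by arginine. The methods describe CRISPR-edited C57BL/6 mice and cells elicited into the peritoneum with thioglycolate. For each genotype there were mock-treated cells (control in the labels) and cells that received LPS at 100 ng/ml over 6 h, which makes 6 groups of 3 libraries. All groups therefore share the elicitation, and the editing is in the germ line rather than in macrophages alone. The labels do not say that the libraries of a group came from separate mice, so the p-values measure the spread between these libraries, which may be technical.

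Histone deacetylases remove acetyl groups from lysines of histones and of other proteins, and so oppose acetyltransferases such as CBP. The class I enzymes Hdac1, Hdac2, Hdac3 and Hdac8 are mostly nuclear. Hdac1 and Hdac2 act in the SIN3, NuRD and CoREST corepressor complexes and Hdac3 acts in the NCoR/SMRT complexes. The class IIa enzymes Hdac4, Hdac5, Hdac7 and Hdac9 have weak catalytic activity, bind MEF2 factors and shuttle between nucleus and cytoplasm under the control of kinases. Hdac6 and Hdac10 form class IIb, and Hdac6 is a cytoplasmic tubulin deacetylase. Hdac11 is the sole class IV enzyme. The study examined acetylation of the TLR4-TIR domain, which deacetylases can reverse, so the levels of these genes were described across the genotypes and the treatment.

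The deposited values are FPKM, that is, fragments per kilobase and per size of the library, listed for first exons, last exons, skipped exons and other transcript events. The length they were divided by is not given. Hdac3 had 11.9 FPKM for both its first and its last exons in mock-treated TLR4-WT library 1. A value need therefore not be the coverage of the exon alone. First-exon FPKM and last-exon FPKM were each added up for a gene in a library, and the larger sum was its value. Read counts were not part of these tables, and the sequencing depth behind a value is therefore unknown. Differences were tested with limma on log2(FPKM + 1), which understates the change of genes with low values, and a gene was called at a Benjamini-Hochberg adjusted p below 0.01. LPS moved the median of all tested genes by −0.28, −0.36 and −0.26 on the log2 scale (TLR4-WT, TLR4-K730R and TLR4-K810R), so changes are also given relative to this median.

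The label checks followed the treatment in every library. Tnf rose from 10.3 to 20.2 FPKM in the mock-treated libraries to 217 to 330 FPKM after LPS. Il1b had a mean of 2.49 FPKM in mock-treated and 1613 FPKM in LPS-treated TLR4-WT macrophages. Tlr4, the mutated gene, ranged from 9.31 to 14.2 FPKM in mock-treated and from 4.18 to 5.72 FPKM in LPS-treated libraries of all genotypes. Nos2 had a mean of 343 FPKM after LPS in TLR4-WT and 70.2 FPKM in TLR4-K810R, a difference that was not called (limma adjusted p = 0.0237).

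Macrophage markers were abundant in every library, with a sum over 7 genes of 11633 to 14785 FPKM in mock-treated and 7289 to 10057 FPKM in LPS-treated libraries, which did not overlap. Most of this sum was Lyz2 (lysozyme) at 5944 to 13291 FPKM, and Fcgr1, an Fc receptor, was at 26.7 to 412 FPKM. Its part in the falls of the members after LPS was not tested. Itgam, which macrophages use as an integrin, had no value in any library, so a gene without a value here need not be silent. T cell markers summed to at most 0.958 FPKM and B cell markers to at most 3.66 FPKM. The sum of the 6 neutrophil markers, 22.1 to 46.1 FPKM in mock-treated and 167 to 239 FPKM in LPS-treated libraries, was S100a8 nearly alone, and S100a9 reached at most 2.23 FPKM. The 5 mesothelium and fibroblast markers summed to 15.5 to 29.5 FPKM in mock-treated TLR4-WT and to 66.4 to 174 FPKM in mock-treated TLR4-K810R libraries. The 5 markers of proliferating cells summed to 6.03 to 7.04 and to 12.1 to 26.1 FPKM in these groups. The part of other cells in the results was not tested.

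In mock-treated macrophages Hdac5 was the most abundant of the 10 transcripts in every genotype. Its level was 28.3 to 46.8 FPKM over the 9 mock-treated libraries, with a median of 37.0 FPKM. Hdac1 followed with a median of 15 FPKM, Hdac3 with 13.2 FPKM and Hdac2 with 8.84 FPKM. In TLR4-WT the libraries of these 4 genes did not overlap with those of the next gene in this order. In TLR4-K730R and TLR4-K810R the libraries of Hdac1 and Hdac3 overlapped. After LPS Hdac1 stood above all other members in every genotype without overlap, and Hdac5 and Hdac3, with medians of 11.7 and 10.7 FPKM, overlapped with each other. The place of Hdac1 in these orders, before and after LPS, rests on its first exons. Its last-exon sums were at most 5.34 FPKM in any library, while those of Hdac3 were at least 8.31 FPKM.

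The other members were lower. Hdac7 had a median of 5.57 FPKM in mock-treated libraries, Hdac4 of 4.84, Hdac6 of 3.69, Hdac10 of 2.95 and Hdac8 of 2.47 FPKM. In TLR4-WT the libraries of neighbours in this order overlapped. In TLR4-K730R Hdac4 was above Hdac6 and Hdac10 above Hdac8 without overlap, and in TLR4-K810R Hdac7 was above Hdac4 and Hdac6 above Hdac10. Hdac11 was at the bottom with a median of 0.0768 FPKM. Over all 18 libraries the mean of Hdac5 exceeded that of 85.8% of genes with a value, Hdac1 that of 83.9% and Hdac8 that of 41.9%.

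**Figure D1:**
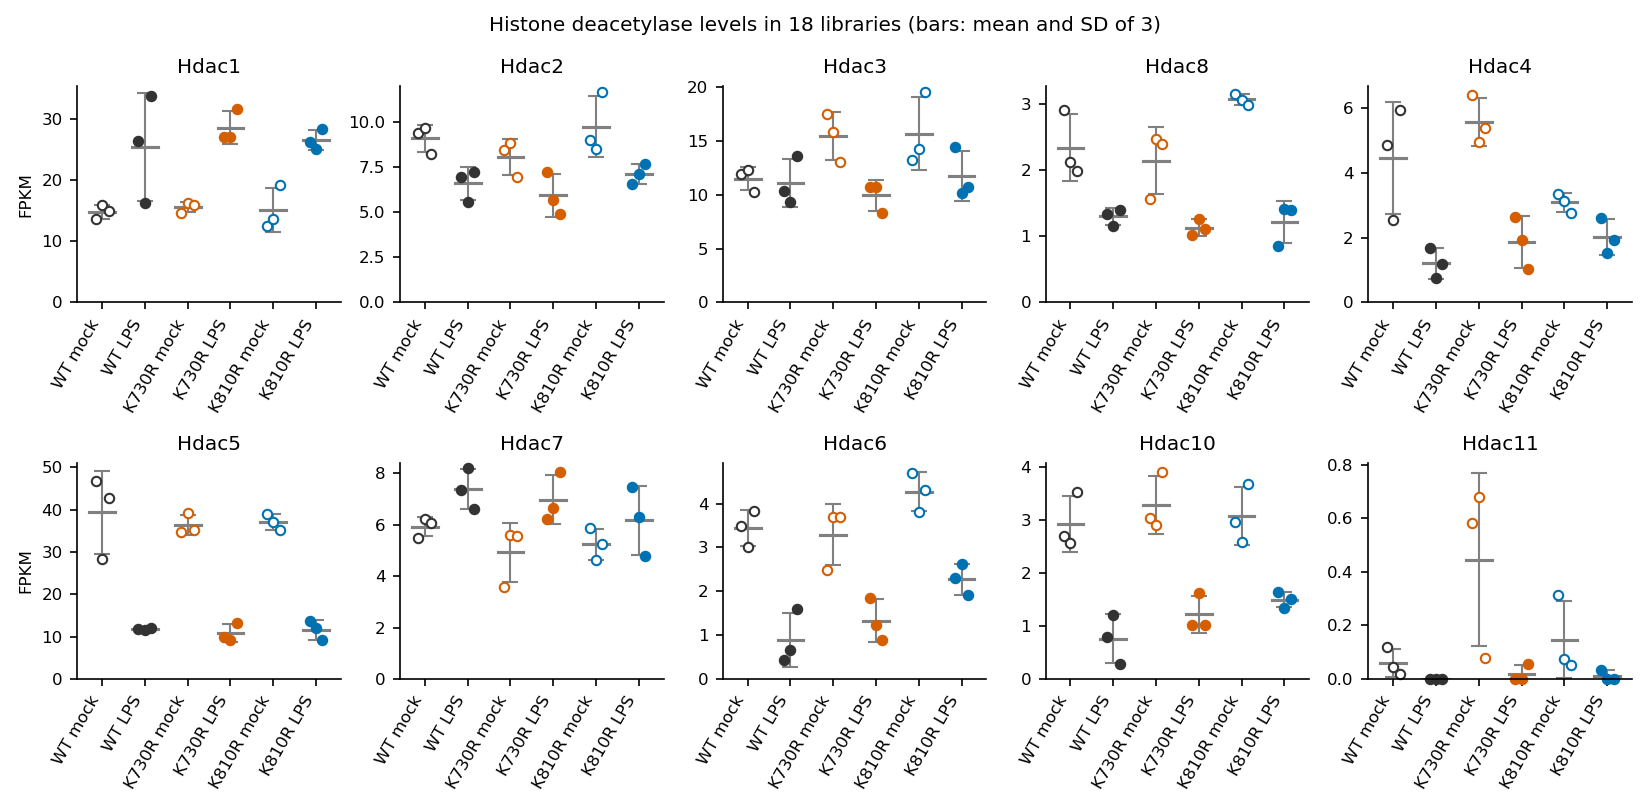
FPKM of the 10 histone deacetylases in each library (y axes, linear, from 0), by genotype and treatment (x axis). Open points are mock-treated and filled points LPS-treated libraries, and bars give the mean and SD of 3 libraries. Within each genotype Hdac1 lies above its mock-treated libraries after LPS, in TLR4-WT by little (lowest 16.2 against highest 15.9 FPKM). Hdac5 falls from 28.3 to 46.8 FPKM to 9.11 to 13.7 FPKM.

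Promoter windows are shown for the members called lower after LPS in at least 1 genotype that have one, Hdac5, Hdac4, Hdac6 and Hdac8, and for Hdac7, a class IIa member whose means were higher after LPS and were not called. RefSeq windows were at hand for 7 of the 10 members and not for Hdac1, Hdac3 and Hdac10. The windows are on GRCm38.p6, run 5′ to 3′ along the gene from 250 bases before to 50 bases after the annotated start, and lie on the minus strand. They are chr11:102230123-102230422 for Hdac5, chr1:92180292-92180591 for Hdac4, chrX:7947840-7948139 for Hdac6, chrX:102505109-102505408 for Hdac8 and chr15:97831446-97831745 for Hdac7. Capitals mark the bases inside a first exon that the files list with a mean share of at least 10% of the first-exon FPKM of the gene.
Hdac5: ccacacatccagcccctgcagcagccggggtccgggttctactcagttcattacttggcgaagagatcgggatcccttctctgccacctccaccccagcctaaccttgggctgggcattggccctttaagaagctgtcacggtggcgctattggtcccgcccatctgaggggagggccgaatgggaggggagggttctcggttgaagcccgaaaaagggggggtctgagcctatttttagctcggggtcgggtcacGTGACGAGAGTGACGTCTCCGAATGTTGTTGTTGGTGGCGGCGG
Hdac4: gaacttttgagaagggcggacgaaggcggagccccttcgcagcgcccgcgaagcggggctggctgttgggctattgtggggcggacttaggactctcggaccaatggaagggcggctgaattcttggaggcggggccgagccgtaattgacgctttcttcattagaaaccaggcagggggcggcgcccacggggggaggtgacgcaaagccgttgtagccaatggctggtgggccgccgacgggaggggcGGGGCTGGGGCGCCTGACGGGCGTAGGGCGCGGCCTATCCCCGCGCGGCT
Hdac6: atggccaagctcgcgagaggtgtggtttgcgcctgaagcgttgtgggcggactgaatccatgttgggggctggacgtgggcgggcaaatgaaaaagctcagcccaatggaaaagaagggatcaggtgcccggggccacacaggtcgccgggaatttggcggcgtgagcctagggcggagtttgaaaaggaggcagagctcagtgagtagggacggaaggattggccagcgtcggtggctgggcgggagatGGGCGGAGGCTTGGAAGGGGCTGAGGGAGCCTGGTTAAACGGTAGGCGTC
Hdac8: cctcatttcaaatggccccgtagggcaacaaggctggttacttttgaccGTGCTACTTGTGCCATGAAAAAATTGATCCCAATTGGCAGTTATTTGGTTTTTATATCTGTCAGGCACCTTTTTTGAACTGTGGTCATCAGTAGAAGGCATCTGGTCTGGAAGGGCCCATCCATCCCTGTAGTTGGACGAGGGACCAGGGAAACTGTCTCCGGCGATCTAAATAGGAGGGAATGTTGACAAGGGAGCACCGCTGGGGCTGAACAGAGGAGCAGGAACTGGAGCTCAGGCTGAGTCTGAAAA
Hdac7: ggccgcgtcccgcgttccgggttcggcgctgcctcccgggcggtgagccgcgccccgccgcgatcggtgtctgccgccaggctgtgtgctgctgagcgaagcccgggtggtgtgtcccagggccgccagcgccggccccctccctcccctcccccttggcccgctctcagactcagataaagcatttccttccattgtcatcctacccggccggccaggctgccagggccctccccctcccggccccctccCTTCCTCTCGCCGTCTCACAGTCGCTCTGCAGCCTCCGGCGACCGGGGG

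The leading first exon of Hdac6 began at the annotated start, that of Hdac7 1 base downstream and that of Hdac5 6 bases downstream. For Hdac7 RefSeq holds further annotated starts, and the window shown is the one closest to the leading first exon. This exon began at positions 273, 13008 and −16631 from the starts at 97831767, 97844502 and 97814863. Their windows are not shown and held no GGGCGG. The leading first exon of Hdac8 began at position −201 from the annotated start, and so filled 251 of the 300 bases of its window. The leading first exon of Hdac4 (chr1:92148256-92148393) lay 31948 bases downstream of this annotated start, whose own first exon (chr1:92180258-92180341) accounts for the capitals. The windows were searched on both strands for the GC box GGGCGG, the E-box CACGTG, the letters CCAAT and, for the TATA box, the letters TATAAA, and for the consensus of κB sites. GGGCGG occurred 5 times each in the windows of Hdac4 and Hdac6, 1 time each in those of Hdac5 and Hdac7 and not in that of Hdac8, and 35.7% of all 32851 windows of this length hold it. CACGTG occurred in the window of Hdac5, where it spans the first listed base, and in 7.15% of all windows. CCAAT occurred 2 times each in the windows of Hdac4, Hdac5, Hdac6 and Hdac8, and in 37.4% of all windows. TATAAA occurred 1 time, in the window of Hdac8, and in 13.6% of all windows. The κB consensus matched in none of these 5 windows and in 4.51% of all windows. These matches describe the letters and not binding.

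After LPS the class IIa enzyme Hdac5, the class IIa enzyme Hdac4 and the class IIb enzymes Hdac6 and Hdac10 fell in TLR4-WT macrophages, while Hdac1 had higher values. Of the 8 members tested under their own number, 3 were called lower (Hdac4, Hdac6 and Hdac10) and 0 higher in TLR4-WT. Over all tested genes 23.9% were called lower and 10.4% higher. In TLR4-K730R 4 members were called lower (Hdac4, Hdac6, Hdac8 and Hdac10) and 1 higher (Hdac1), against 26.5% and 9.32% of all genes. In TLR4-K810R 2 were called lower (Hdac8 and Hdac10) and 1 higher (Hdac1), against 19.7% and 9.08% of all genes. Hdac5 was called lower in all 3 genotypes besides. The median log2 difference of the 8 members was −0.47, −0.57 and −0.42 for TLR4-WT, TLR4-K730R and TLR4-K810R.

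In TLR4-WT the LPS-treated libraries did not overlap with the mock-treated ones for 7 of these 8 members, 5 lower and 2 higher, and 39.5% of all genes were lower and 15.5% higher in this way. In TLR4-K730R this held for 5 lower and 2 higher members, against 45.0% and 13.8% of all genes. In TLR4-K810R it held for 5 lower members and 1 higher, against 37.9% and 14.6% of all genes. Dividing each library by a median-of-ratios factor, which removes the shift of the median gene, changed the balance of the calls. Over all genes, 1012 were called higher and 2316 lower by LPS in TLR4-WT without this scaling, and 1496 higher and 1370 lower with it. With it, Hdac1 was called higher in all 3 genotypes and Hdac7 in TLR4-K730R, and the falls of Hdac8 and Hdac6 in TLR4-K730R and of Hdac10 in both mutants no longer passed the threshold.

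**Figure D2:**
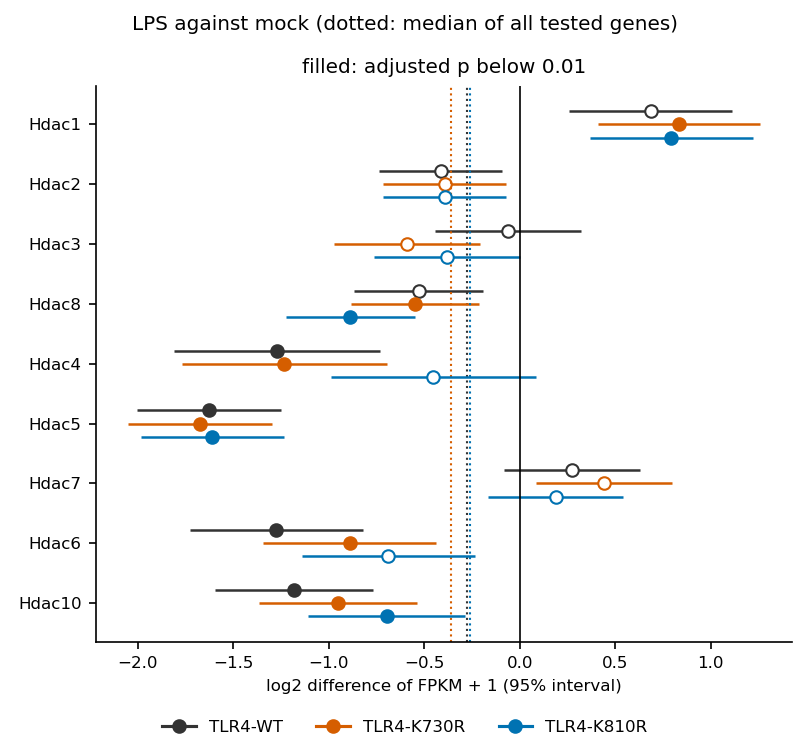
Log2 differences of FPKM + 1 between LPS-treated and mock-treated macrophages (x axis, 95% interval) for 9 histone deacetylases in each genotype (colours). Filled points have a limma adjusted p below 0.01 and dotted lines give the median of all tested genes in each genotype. Hdac5 lies between −1.68 and −1.61 in the 3 genotypes, and Hdac1 between 0.69 and 0.83.

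Hdac1 (ENSMUSG00000028800), which the study examined as a deacetylase of the TLR4-TIR domain, is at chr4:129516104-129542713 of GRCm38. Its level in the 3 mock-treated TLR4-WT libraries was 13.6, 15.9 and 15 FPKM, and in the 3 LPS-treated ones 26.4, 16.2 and 33.7 FPKM. LPS-treated library 2 stood just above the mock-treated libraries. In this library 1.78 FPKM came from a minor first exon at 129528927 to 129528999, and on the annotated first exon alone it was at 14.3 FPKM, within the 13.3 to 15.6 FPKM of the mock-treated libraries, so that the groups overlapped there. The mean was 1.72-fold higher after LPS, with a log2 difference of 0.69 (95% interval 0.26 to 1.11), which missed the threshold (limma adjusted p = 0.0106). Without LPS-treated library 2 the difference was 0.97 and was called (limma adjusted p = 0.000232).

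Both mutants showed higher Hdac1 after LPS, with LPS-treated libraries closer to each other than in TLR4-WT. In TLR4-K730R the level was 14.6, 16.2 and 15.9 FPKM in mock-treated and 27.0, 27.1 and 31.6 FPKM in LPS-treated libraries, a log2 difference of 0.83 (limma adjusted p = 0.00281). In TLR4-K810R it was 12.5, 13.6 and 19.2 FPKM before and 26.2, 25.0 and 28.3 FPKM after LPS, a log2 difference of 0.79 (limma adjusted p = 0.00475). Relative to the median of all genes the differences were 0.96, 1.19 and 1.05 for TLR4-WT, TLR4-K730R and TLR4-K810R. The calls were near the threshold. In TLR4-K730R the call was lost without mock-treated library 1 (0.79, limma adjusted p = 0.0124) or LPS-treated library 3 (0.76, limma adjusted p = 0.0142). In TLR4-K810R it was lost without mock-treated library 1 or 2 or any LPS-treated library, with differences of 0.68 to 0.83 and a limma adjusted p of 0.011 to 0.0266.

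The values of Hdac1 rest on a first exon at 129542581 to 129542713, the annotated start of the gene, with 88.3% to 99.8% of its first-exon FPKM. The listed last-exon events of Hdac1 do not reach its annotated end and sum to 0.41 to 5.34 FPKM. From these events alone the LPS difference in TLR4-K810R was −0.36, the opposite sign, and in TLR4-K730R it was 0.97 and was not called. Hdac1 and Hdac2, close paralogs that share complexes, moved apart. The Hdac1 value divided by the Hdac2 value of the same library was 1.38 to 2.28 in the 9 mock-treated libraries and 2.91 to 6.42 in the 9 LPS-treated ones. This ratio does not depend on the scaling of the libraries.

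The tested genes whose log2 values followed Hdac1 most closely over the 18 libraries were Dyrk2, a protein kinase, Sh3bp4 and Ext1, a heparan sulfate synthesis enzyme. Their centred log2 values differed from those of Hdac1 by a root mean square of 0.198, 0.204 and 0.208, against a median of 0.679 over all tested genes. Dyrk2 had a mean of 5.8 ± 0.198 FPKM (SD, n = 3) in mock-treated and 8.72 ± 2.67 FPKM in LPS-treated TLR4-WT macrophages. All 4 genes were measured in the same 18 libraries, which differ by treatment.

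Hdac2 (ENSMUSG00000019777), the partner of Hdac1 in its complexes, was 8.23 to 9.67 FPKM in mock-treated and 5.57 to 7.26 FPKM in LPS-treated TLR4-WT libraries, which did not overlap. Its log2 differences were −0.41, −0.39 and −0.39 in TLR4-WT, TLR4-K730R and TLR4-K810R, and none passed the threshold (limma adjusted p = 0.0347, 0.0421 and 0.0492). Relative to the median of all genes they were −0.14, −0.03 and −0.13.

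Hdac3 (ENSMUSG00000024454), the catalytic subunit of the NCoR/SMRT complexes, was 11.9, 12.3 and 10.3 FPKM in mock-treated and 10.3, 9.32 and 13.6 FPKM in LPS-treated TLR4-WT macrophages. These groups overlapped, and the log2 difference of −0.06 (95% interval −0.44 to 0.32) became 0.24 with the median-of-ratios scaling. In TLR4-K730R Hdac3 was 17.4, 15.8 and 13.1 FPKM before and 10.7, 10.7 and 8.31 FPKM after LPS. Those groups did not overlap, and the log2 difference of −0.59 missed the threshold (limma adjusted p = 0.0127). In TLR4-K810R the difference was −0.38 (limma adjusted p = 0.103), with overlapping libraries.

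Hdac8 (ENSMUSG00000067567), a class I enzyme that works outside the large corepressor complexes, was low and lower after LPS. It was 2.92, 2.12 and 1.99 FPKM in mock-treated and 1.35, 1.16 and 1.41 FPKM in LPS-treated TLR4-WT libraries, without overlap, and the log2 difference of −0.53 missed the threshold (limma adjusted p = 0.0123). In TLR4-K810R it fell from 3.16, 3.07 and 3.0 FPKM to 0.852, 1.41 and 1.40 FPKM, a log2 difference of −0.89 (limma adjusted p = 0.000312). That fall was called without any 1 of its 6 libraries. In TLR4-K730R the log2 difference was −0.55 (limma adjusted p = 0.00957). This call was lost without mock-treated library 2 or 3 or any LPS-treated library, with differences of −0.59 to −0.47.

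Hdac5 (ENSMUSG00000008855) lies on chromosome 11 from 102194432 to 102230166 and showed the largest fall of the members in log2(FPKM + 1) in each genotype. By the fold of means in TLR4-WT it was behind Hdac6 (3.86-fold, and 2.86-fold without the filter on strand and span), Hdac10 (3.85-fold) and Hdac4 (3.69-fold). With a pseudocount of 0.1 its log2 difference there was −1.70, against −2.01 for Hdac6, −1.97 for Hdac10 and −1.78 for Hdac4. In TLR4-WT it was 46.8, 28.3 and 42.8 FPKM in mock-treated and 11.7, 11.5 and 12.1 FPKM in LPS-treated libraries, a log2 difference of −1.63 (95% interval −2.0 to −1.25, limma adjusted p = 1.62e-06). In TLR4-K730R it was 34.7, 39.1 and 35.1 FPKM before and 9.95, 9.17 and 13.2 FPKM after LPS, a log2 difference of −1.68 (limma adjusted p = 1.12e-06). In TLR4-K810R it was 38.9, 37.0 and 35.2 FPKM before and 13.7, 11.9 and 9.11 FPKM after LPS, a log2 difference of −1.61 (limma adjusted p = 2.23e-06). Every LPS-treated library was below every mock-treated one, and the means were 3.19- to 3.37-fold lower. Relative to the median of all genes the differences were −1.35, −1.32 and −1.35.

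The rows at the Hdac5 locus carry the gene number of Mir8101, a miRNA gene at 102230040 to 102230150 inside the first exon of Hdac5 on the same strand. The 12 first-exon and last-exon events on the strand and span of Hdac5 under that number were taken as Hdac5, a choice made after seeing the data. The leading first exon, at 102230005 to 102230166, held 94.9% to 99.6% of the first-exon FPKM. The RefSeq sequence of the mature miRNA, on GRCm38.p6 at chr11:102230103-102230124 on the minus strand, is shown because it gave the locus its number, with its seed (bases 2 to 8) in capitals.
mmu-miR-8101: gGCGAGCGgagccggaggagcc

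Hdac4 (ENSMUSG00000026313), on chromosome 1 from 91928779 to 92195699, fell in TLR4-WT and TLR4-K730R. In TLR4-WT it was 4.84, 2.55 and 5.93 FPKM in mock-treated and 1.68, 0.75 and 1.18 FPKM in LPS-treated libraries, a log2 difference of −1.27 (limma adjusted p = 0.000656). In TLR4-K730R it was 6.38, 4.95 and 5.37 FPKM before and 2.64, 1.92 and 1.04 FPKM after LPS, a log2 difference of −1.23 (limma adjusted p = 0.000814). The call held in both genotypes without any 1 library. In TLR4-K810R the level was 3.35, 3.13 and 2.77 FPKM before and 2.60, 1.52 and 1.91 FPKM after LPS. These groups did not overlap, and the log2 difference of −0.45 (95% interval −0.99 to 0.08) was not called (limma adjusted p = 0.168).

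The use of the first exons of Hdac4 differed between the libraries of the genotypes. In mock-treated cells the downstream first exon held 47.4% to 59.3% of the first-exon FPKM in TLR4-WT, 72.7% to 95.8% in TLR4-K730R and 89.6% to 98.6% in TLR4-K810R. Neither mutant overlapped with TLR4-WT. After LPS it held 40.9% to 90.4%, 81.6% to 88.9% and 98.5% to 100%, and TLR4-K810R alone did not overlap with TLR4-WT. The upstream first exon, in capitals above, was at 1.22 to 1.35 FPKM in mock-treated TLR4-WT and at 0.0456 to 0.204 FPKM in mock-treated TLR4-K810R libraries. In mock-treated TLR4-K730R it was at 1.6 FPKM in library 1, at 0.205 FPKM in library 3 and without a row in library 2. A longer first exon from the same start (chr1:92180002-92180341) was listed besides, at 0.594 and 0.557 FPKM in mock-treated TLR4-WT libraries 1 and 3. Mock-treated TLR4-K730R libraries 1 and 2 had it at 0.0187 and 0.207 FPKM, and TLR4-K810R libraries 2 and 3 at 0.119 and 0.0914 FPKM. These shares rest on low values and were not tested.

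Hdac7 (ENSMUSG00000022475), the remaining class IIa member, had higher means after LPS in each genotype. It was 5.50, 6.21 and 6.06 FPKM in mock-treated and 7.34, 8.19 and 6.63 FPKM in LPS-treated TLR4-WT libraries, without overlap. Its log2 differences were 0.27, 0.44 and 0.19 in TLR4-WT, TLR4-K730R and TLR4-K810R, and none was called (limma adjusted p = 0.191, 0.0385 and 0.393). With the median-of-ratios scaling they were 0.56, 0.79 and 0.42, of which that in TLR4-K730R was called (limma adjusted p = 0.00223). Hdac9, the class IIa enzyme outside the 10 genes, was listed at 0.598 to 3.69 FPKM and was not called in any LPS comparison.

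Hdac6 (ENSMUSG00000031161), the tubulin deacetylase, lies on chromosome X from 7930120 to 7947889. It fell in TLR4-WT from 3.50, 3.01 and 3.82 FPKM to 0.431, 0.655 and 1.59 FPKM after LPS, a 3.86-fold lower mean and a log2 difference of −1.28 (limma adjusted p = 0.000136). Without the filter on strand and span LPS-treated library 2 was at 1.59 FPKM instead of 0.655 FPKM, and the mean was 2.86-fold lower, with a log2 difference of −1.06 that was still called (limma adjusted p = 0.000596). In TLR4-K730R it fell from 2.48, 3.69 and 3.69 FPKM to 1.86, 1.23 and 0.887 FPKM, a log2 difference of −0.89 (limma adjusted p = 0.00265). That call was lost without mock-treated library 2 or 3 or LPS-treated library 3, with differences of −0.82, −0.82 and −0.75. In TLR4-K810R it was 4.69, 3.81 and 4.32 FPKM before and 2.30, 2.61 and 1.91 FPKM after LPS. These groups did not overlap, and the log2 difference of −0.69 missed the threshold (limma adjusted p = 0.0167).

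Hdac10 (ENSMUSG00000062906), the other class IIb enzyme and a polyamine deacetylase, was called lower in all 3 genotypes. It fell in TLR4-WT from 2.70, 2.55 and 3.53 FPKM to 0.794, 1.2 and 0.284 FPKM, a log2 difference of −1.18 (limma adjusted p = 0.000117). In TLR4-K730R it fell from 3.03, 2.91 and 3.90 FPKM to 1.02, 1.63 and 1.01 FPKM, a log2 difference of −0.95 (limma adjusted p = 0.000787). Neither call was lost without any 1 library. In TLR4-K810R it fell from 2.95, 2.58 and 3.67 FPKM to 1.64, 1.34 and 1.51 FPKM, a log2 difference of −0.70 (limma adjusted p = 0.0091). That call was lost without any 1 of its 6 libraries, with differences of −0.78 to −0.59 and a limma adjusted p of 0.0111 to 0.0441.

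Hdac11 (ENSMUSG00000034245) was listed at 0.0203 to 0.678 FPKM in the 9 mock-treated libraries. After LPS 7 of 9 libraries held no row for its first or last exons and were set to 0, and the others gave 0.0575 and 0.0349 FPKM. A missing row cannot be told apart from a level too low to be listed.

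Summed FPKM gave the make-up of the family in each library. The 10 transcripts summed to 82.6 to 105 FPKM in mock-treated and to 54.5 to 77.8 FPKM in LPS-treated libraries. The class I share of this sum was 36.3% to 51.0% in mock-treated and 59.2% to 72% in LPS-treated libraries. The class IIa share was 41.3% to 56.5% before and 23.5% to 37.4% after LPS. The class IIb share was 5.94% to 8.25% before and 1.83% to 5.86% after LPS. For these 3 classes, no LPS-treated library reached into the mock-treated range, in any genotype. These shares do not depend on the scaling of the libraries, but they rest on first-exon values for Hdac1. Most of the change lay in Hdac1 and Hdac5. The Hdac1 value divided by the Hdac5 value was 0.29 to 0.562 in mock-treated and 1.41 to 3.10 in LPS-treated libraries. In bulk RNA, fewer cells with a transcript and less of it per cell cannot be told apart.

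**Figure D3:**
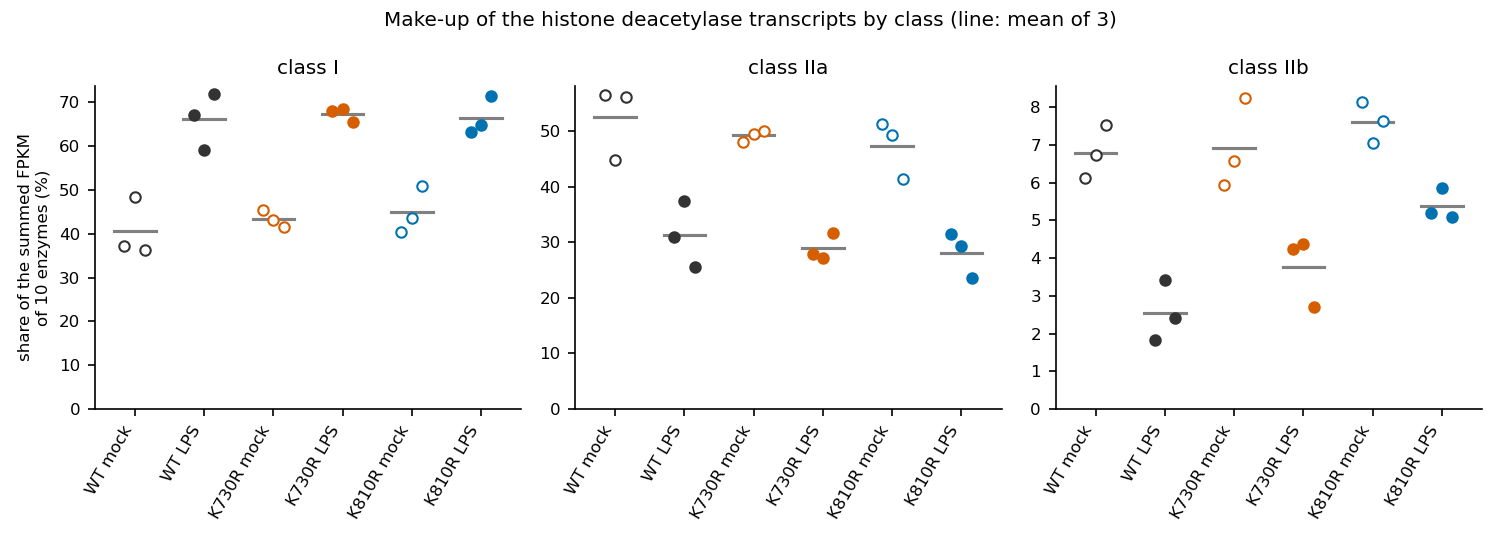
Share of the summed FPKM of the 10 histone deacetylases (y axes, percent, from 0) held by class I, class IIa and class IIb in each library, by genotype and treatment (x axis). Open points are mock-treated and filled points LPS-treated libraries, and lines give the mean of 3. The class I share is 36.3% to 51.0% before and 59.2% to 72% after LPS.

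No member was called between a mutant and TLR4-WT. The comparisons of both mutants share the TLR4-WT libraries. Among mock-treated libraries 0 of 8 members were called in TLR4-K730R, where 0.268% of all genes were called, and 0 of 8 in TLR4-K810R, where 1.58% were. Among LPS-treated libraries 0 of 8 were called in each mutant, where 0.0% and 0.134% of all genes were called. In the comparison with 0 calls, 746 genes had an unadjusted p below 0.05 in limma. At an unadjusted p below 0.05 the numbers of members were 1, 1, 0 and 2 in this order, and Hdac5 was not among them. Libraries that did not overlap were found for 1, 2, 0 and 2 members, against 16.4%, 20.8%, 10.9% and 25.3% of all genes.

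For Hdac1 the differences between genotypes were small. In mock-treated cells its log2 difference from TLR4-WT was 0.07 (95% interval −0.36 to 0.49) in TLR4-K730R and 0.01 (−0.42 to 0.43) in TLR4-K810R. After LPS it was 0.22 (−0.21 to 0.64) and 0.12 (−0.31 to 0.54). For Hdac5 the differences were −0.08 (−0.46 to 0.29) and −0.05 (−0.43 to 0.32) before LPS, and −0.13 (−0.51 to 0.25) and −0.04 (−0.41 to 0.34) after LPS. The intervals leave room for changes of these sizes in either direction, and the signs depended on the events used. From last exons alone the differences of Hdac5 in this order were 0.93, 0.23, 0.48 and 0.41, all opposite in sign (limma adjusted p of 0.454 to 0.833). Its last-exon FPKM was 13.8, 28.3 and 15.5 in mock-treated TLR4-WT and 34.1, 38 and 35.1 in mock-treated TLR4-K730R libraries, which did not overlap. From last exons alone Hdac1 after LPS differed by −0.82 in TLR4-K810R (limma adjusted p = 0.126).

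In mock-treated cells Hdac3 was higher in every library of both mutants than in every TLR4-WT library. Levels ran from 10.3 to 12.3 FPKM in TLR4-WT, while TLR4-K730R had 13.1 to 17.4 FPKM and TLR4-K810R had 13.2 to 19.5 FPKM. The log2 differences of 0.39 (95% interval 0.01 to 0.77) and 0.40 (0.02 to 0.78) were not called (limma adjusted p = 0.63 and 0.326). Hdac8 in mock-treated TLR4-K810R was also above all TLR4-WT libraries, with a log2 difference of 0.30 (limma adjusted p = 0.441). Other markers also differed in these mock-treated libraries. The mesothelium and fibroblast markers summed to 35.7 to 41.0 FPKM in TLR4-K730R, above TLR4-WT, and were higher in TLR4-K810R, as were the proliferating cell markers. The 6 intestinal epithelium markers summed to 0.118 to 0.594 FPKM in TLR4-WT, while TLR4-K730R had 6.56 to 32.3 and TLR4-K810R had 10.3 to 48.7 FPKM. The 5 mast cell markers summed to 4.7 to 5.25 FPKM in TLR4-WT and to 0.494 to 2.64 FPKM in the mutants. Their part in these differences was not tested.

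After LPS both class IIb enzymes were higher in every TLR4-K810R library than in every TLR4-WT library. Hdac6 was 1.91 to 2.61 FPKM in TLR4-K810R and 0.431 to 1.59 FPKM in TLR4-WT, a 2.55-fold higher mean and a log2 difference of 0.83 (95% interval 0.38 to 1.29, limma adjusted p = 0.0527). Without LPS-treated TLR4-WT library 3, the highest of its group, the difference was 1.08 and was called (limma adjusted p = 0.00597). Without the filter on strand and span the difference was 0.62 (limma adjusted p = 0.112), and over all alternatives it was 0.62 to 1.43 (limma adjusted p of 0.00534 to 0.491). Leaving out library 3 also raised the calls over all genes in this comparison from 5 higher and 8 lower to 198 higher and 85 lower. Hdac10 was 1.34 to 1.64 FPKM against 0.284 to 1.2 FPKM, a log2 difference of 0.54 (95% interval 0.12 to 0.95, limma adjusted p = 0.131). In the same libraries the mesothelium and fibroblast markers summed to 62.5 to 74.1 FPKM in TLR4-K810R and 25.9 to 88.7 FPKM in TLR4-WT, and the proliferating cell markers to 13.6 to 17.0 and 6.49 to 16.9 FPKM. Their part in these differences was not tested.

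**Figure D4:**
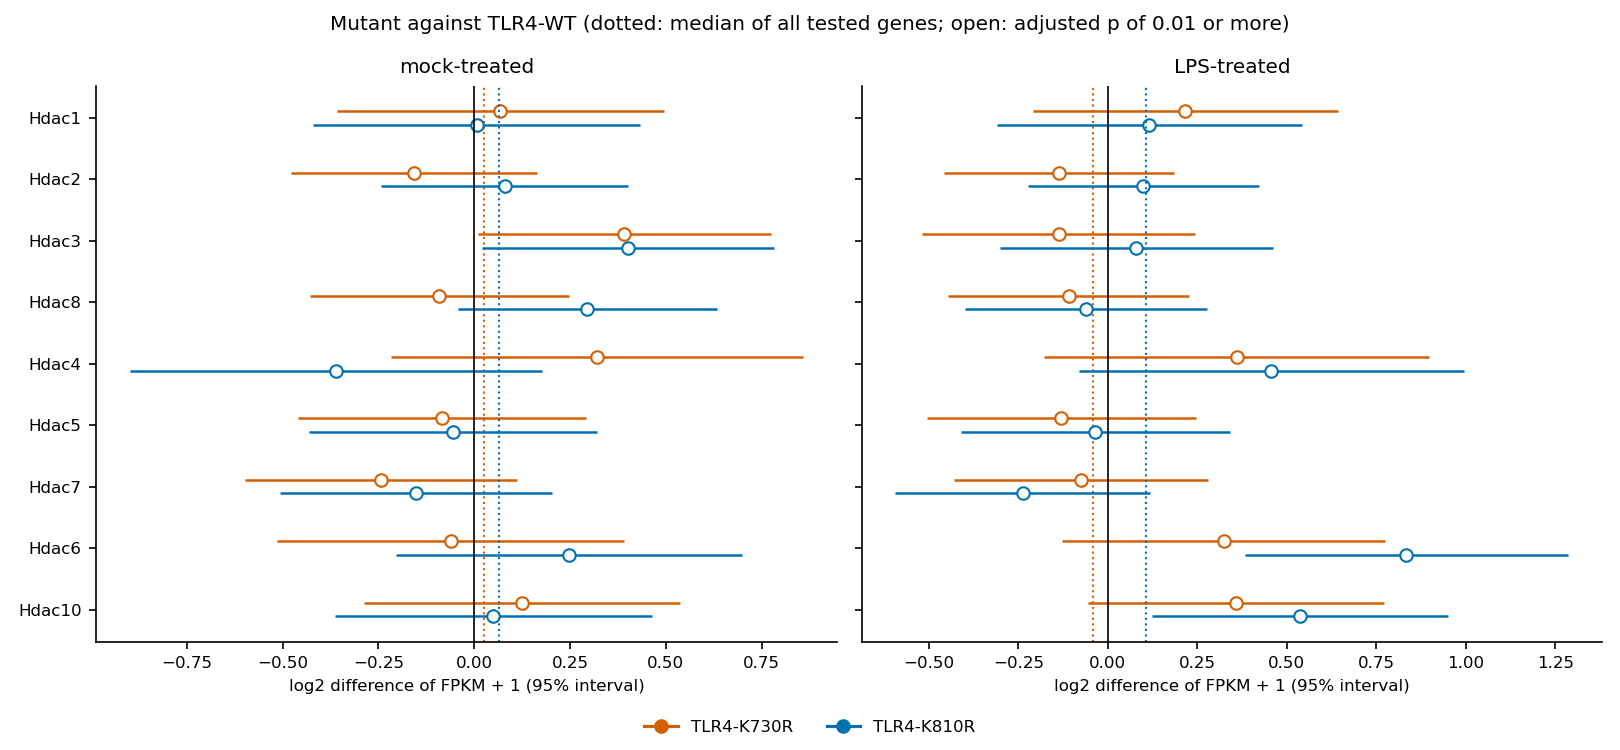
Log2 differences of FPKM + 1 between each mutant and TLR4-WT (x axes, 95% interval) for 9 histone deacetylases, in mock-treated (left) and LPS-treated (right) macrophages. All points are open since none has a limma adjusted p below 0.01, and dotted lines give the median of all tested genes. After LPS the Hdac6 difference in TLR4-K810R, 0.83, is the one farthest from 0.

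The difference between the LPS response of a mutant and that of TLR4-WT was tested as an interaction. No member was called, against 0.0412% of all genes in TLR4-K730R and 0.124% in TLR4-K810R. The largest was Hdac4 in TLR4-K810R, whose response differed from that of TLR4-WT by 0.82 on the log2 scale (unadjusted p = 0.0365 and adjusted p = 0.338 in limma, n = 3 libraries in each of 4 groups). This was the only member with an unadjusted p below 0.05 in either interaction. The fall of Hdac4 is therefore not shown to differ between genotypes, although it was called in 2 of them. For Hdac3 in TLR4-K730R the response differed by −0.53 (95% interval −1.07 to 0.01), and for Hdac5 by −0.05 (−0.58 to 0.48) in TLR4-K730R and 0.02 (−0.51 to 0.55) in TLR4-K810R.

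The genes that work with these enzymes were described from lists of 67 genes, of which 61 were tested. After LPS 20, 21 and 16 of the 61 were called lower in TLR4-WT, TLR4-K730R and TLR4-K810R, and 3, 1 and 2 were called higher, beside the background shares of LPS calls above. With the median-of-ratios scaling the numbers were 11 lower and 8 higher, 8 and 9, and 9 and 5, where 14.2%, 13.5% and 11.7% of all genes were called lower and 15.5%, 15.5% and 12.4% higher. Between the mutants and TLR4-WT 0 of the 61 were called by limma, before or after LPS.

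Of the 18 partners and kinases of the class IIa enzymes, 17 were tested, and 8, 8 and 6 were called lower in TLR4-WT, TLR4-K730R and TLR4-K810R, with a median log2 difference of −0.62, −0.70 and −0.65. Over all tested genes 23.9%, 26.5% and 19.7% were called lower, with medians of −0.28, −0.36 and −0.26. With the median-of-ratios scaling the calls in this list were nearer balance, with 6 lower and 4 higher in TLR4-WT and 4 lower and 3 higher in each mutant. Camk1, a calcium-dependent kinase that can phosphorylate class IIa enzymes, fell from 44.4 ± 3.94 FPKM (SD, n = 3) to 5.75 ± 0.578 FPKM in TLR4-WT, with log2 differences of −2.75, −2.89 and −2.63. Of the 3 MEF2 factors in the list, which class IIa enzymes repress, Mef2c and Mef2a had log2 differences of −1.95 and −1.67 in TLR4-WT, and Mef2d had −0.62 and was not called in any genotype (limma adjusted p = 0.0377 in TLR4-WT). Sik1, a kinase that drives class IIa enzymes out of the nucleus, had a log2 difference of −1.74 in TLR4-WT. Camk1, Mef2c, Mef2a and Sik1 were called in every genotype without the scaling, and with it too except Sik1 in TLR4-K810R (limma adjusted p = 0.027). Called higher in TLR4-WT were Ywhae, a 14-3-3 protein, and Sik3, with log2 differences of 0.83 and 0.42.

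Subunits of the class I complexes were called in both directions, and the counts of these short lists stand beside the shares of all genes given above. Of 13 tested SIN3 genes, Sap30 rose from 27.4 ± 1.26 FPKM (SD, n = 3) to 44.2 ± 3.53 FPKM in TLR4-WT, with log2 differences of 0.67, 0.86 and 0.98 in the 3 genotypes, all called. Rbbp7, a histone-binding subunit, was called lower in each genotype, by −0.42, −0.55 and −0.41, and not with the scaling. The list had 1 gene called lower in TLR4-WT and TLR4-K730R and 2 in TLR4-K810R. Of 10 NuRD genes 3, 4 and 2 were called lower and 0 higher. Among them were the remodeller Chd3, with log2 differences of −1.33, −2.08 and −1.71, and Mta3, with −0.52, −0.45 and −0.62. Mbd3 was called lower in TLR4-WT and TLR4-K730R, with −1.37 and −0.96. With the median-of-ratios scaling the falls of Mta3, of Chd3 in TLR4-WT and of Mbd3 in TLR4-K730R were not called. With it the SIN3 list had 3, 3 and 2 genes called higher and 0 lower, and the NuRD list 1, 1 and 0 higher and 1 lower in each genotype. The genes called higher with the scaling alone were Sin3b in every genotype, Ing1 in TLR4-WT and TLR4-K730R, and Mbd2 in TLR4-WT and TLR4-K730R.

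In the CoREST list 2, 2 and 0 of 5 tested genes were called lower, Hmg20b and Rcor3, with −1.59 and −1.01 in TLR4-WT. In the NCoR/SMRT list 2 of 5 genes were called lower in each genotype. Tbl1x, which the complexes use to exchange their corepressor, was among them in each, with −0.85, −1.33 and −0.90, and Gps2 in TLR4-WT with −0.62. Mier1, a scaffold of Hdac1 and Hdac2, was the 1 gene of 5 in the MiDAC and MIER list that was called lower in each genotype. Of 6 tested sirtuins, deacetylases of another family that need NAD, 3 were called lower in each genotype, Sirt3, Sirt1 and Sirt2, with −1.15, −0.80 and −0.75 in TLR4-WT. With the median-of-ratios scaling Sirt3, Tbl1x and Mier1 were called in every genotype, while Sirt1, Sirt2, Rcor3 and Gps2 were not called in any. Hmg20b lost its call in TLR4-K730R (limma adjusted p = 0.0103), and Mier3 and Sirt6 were called higher there, with scaled log2 differences of 1.18 and 0.66.

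**Figure D5:**
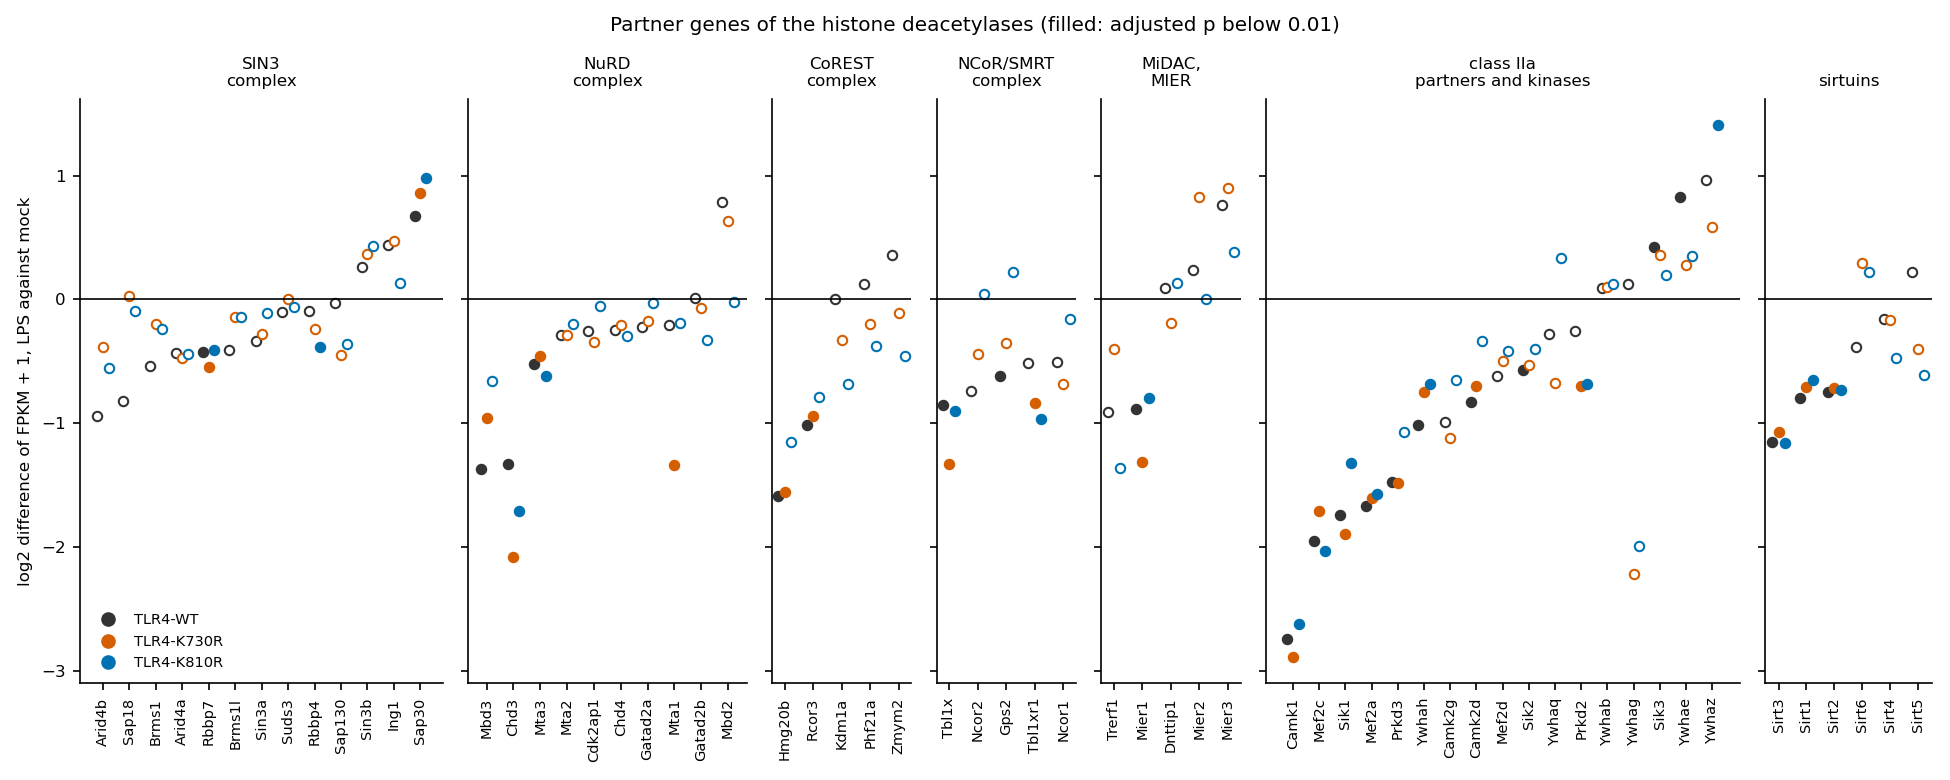
Log2 differences of FPKM + 1 between LPS-treated and mock-treated macrophages (y axis) for the 61 tested partner genes (x axes), by list and genotype (colours). Filled points have a limma adjusted p below 0.01. Camk1 lies between −2.89 and −2.63, and Sap30 lies at 0.67, 0.86 and 0.98.

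Splicing events gave little beyond the levels. The files list from 4 distinct events for Hdac11 to 86 for Hdac5. For most exons only the included or only the skipped form is listed, and exons with both forms in at least 9 libraries were found in Hdac5 and Hdac7 alone. The Hdac5 exon at chr11:102213925-102214036 had both forms in 11 libraries, with an inclusion share of 0.0076% to 24.5% and a median of 1.96%. The Hdac7 exon at chr15:97800695-97800802 was included at 89.1% to 98.3% in 11 libraries, and that at chr15:97808660-97808770 at 0.0486% to 22.8% in 12 libraries. The Hdac7 exon at chr15:97826735-97826791 was included at 0.0089% to 62.6% in 9 libraries. Since the missing form in the other libraries may be unlisted rather than absent, these shares were not compared between groups.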

How the data were processed

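RNA-seq of 18 libraries was grouped by the sample titles. Per the methods, total RNA was isolated with a column kit and sequenced by Illumina, and differential expression was set at an adjusted p below 0.01. The aligner, the quantification program and the annotation are not given in the sources used here. The labels name hg18, which is a human build, while the coordinates match GRCm38, and 14126 of 14138 Ensembl numbers were found in GENCODE M21.

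The authors deposited FPKM values per transcript event of 20 types, normalized for length and library, in 80071 to 90401 rows per library. An event without a row in a library was set to 0, and the rule by which rows were left out is not given. No counts are given either, so the depth and the precision of single values are unknown. Events off the strand or outside the span of their gene were left out, with 6.24% of first-exon and last-exon FPKM. The rows at Hdac5 carry the number of Mir8101.

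The test was limma 3.58.1 (R 4.3.3) on log2(FPKM + 1) over genes that reached 1 FPKM in 3 or more libraries, with the 6 groups in one fit, an intensity trend and adjustment over 9707 genes. The procedure was tested on simulated data. Python 3.11.15 and pandas 2.3.3 were used for the rest. The members, the gene lists, the tests and the alternatives were chosen with earlier results of these data known. The genes named are the 10 members in every group, Hdac9, the label checks Tlr4, Tnf, Il1b and Nos2, up to 4 called genes per partner list with the largest TLR4-WT difference, and the 3 genes most like Hdac1 by root mean square difference. Ywhae, Sik3, Mef2d, Sin3b, Ing1, Mbd2, Mier3, Sirt6, Lyz2, Fcgr1, S100a8 and S100a9 were named after their values were seen. Libraries of a group correlated at r = 0.961 to 0.975 across genes, which are not independent replicates, and libraries of different groups at up to r = 0.974. The other markers, of mast cells (0.494 to 5.25 FPKM summed), eosinophils (0 to 2.79), dendritic cells (0 to 1.63) and intestinal epithelium (0 to 48.7), were summed in the same way. Alternatives were the first or last exons alone, no strand and span filter, other pseudocounts, filters, scaling, trend, weights, block and thresholds, and left-out libraries.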

Additional observations from a re-analysis of the deposited data

How the results depend on the processing

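Among the 8 members tested under their own number, 3, 5 and 3 were called after LPS in TLR4-WT, TLR4-K730R and TLR4-K810R. Leaving out libraries gave 2 to 4, 1 to 4 and 0 to 2 calls, in fits with fewer samples that called 18.6% to 33.6%, 20% to 32.2% and 15.4% to 25.3% of all genes, and 0 to 1 for TLR4-K810R against TLR4-WT after LPS (0.0103% to 2.92%). The numbers were 6, 8 and 5 at an adjusted p below 0.05, where 47.4%, 48.8% and 40.3% of all genes were called. They were 1, 1 and 1 with a mean of at least 5 FPKM, where 4 members (Hdac1, Hdac2, Hdac3 and Hdac7) were tested among 5711 genes and 42.1%, 43.7% and 35.4% were called. Last exons alone gave 3 calls in TLR4-K730R and 1 in TLR4-K810R (35.2% and 28.4% of all genes). The median-of-ratios scaling gave 3 in TLR4-K730R (29.0%). Fits of only the groups compared gave 3 and 1 in these genotypes (28.9% and 22.2%). Library weights gave 5 in TLR4-WT (40.8%) and 1 for TLR4-K810R against TLR4-WT after LPS, where they also raised the calls over all genes from 5 higher and 8 lower to 223 and 143. The causes of these moves were not tested. With Hdac5 at its locus, a setting chosen after seeing the data, the LPS calls were 4, 6 and 4 and those between genotypes 0.

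The sign reversed for Hdac3 in TLR4-WT after LPS, to 0.24 with the scaling, to 0.044 without LPS-treated library 2, and to 0.0061 and 0.091 without replicate numbers 1 and 2 (range over left-out libraries −0.28 to 0.091), and for Hdac1 in TLR4-K810R, to −0.36 with last exons alone. None of the differences between genotypes or responses that follow were called. With last exons alone the differences of Hdac5 from TLR4-WT turned to 0.93 (TLR4-K730R) and 0.23 (TLR4-K810R) before and to 0.48 and 0.41 after LPS, and those of Hdac1 to −0.15 in mock-treated TLR4-K730R and −0.82 in LPS-treated TLR4-K810R. With the scaling Hdac1 turned to −0.086 and −0.033 in TLR4-K810R (mock and LPS), and the interactions of Hdac5 to 0.028 and −0.028. Library weights gave −0.031 for Hdac1 in mock-treated TLR4-K810R. Over left-out libraries Hdac1 ranged from −0.064 to 0.44 in LPS-treated TLR4-K730R, and from −0.17 to 0.12 (mock) and −0.17 to 0.34 (LPS) in TLR4-K810R. Hdac5 ranged from −0.35 to 0.087 in mock-treated TLR4-K730R, from −0.27 to 0.085 (mock) and −0.16 to 0.13 (LPS) in TLR4-K810R, and its interactions from −0.27 to 0.30 and −0.21 to 0.23. The causes were not tested. The fall of Hdac5 kept its direction and its call in all 21 alternatives in each genotype.

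A replicate block gave 4, 4 and 2 member calls after LPS, where 32.3%, 33.9% and 27.2% of all genes were called. The deviations of same-numbered libraries of different groups had a median correlation of −0.02 (−0.32 to 0.0993). These pairs include libraries of different genotypes, so this value cannot decide whether mock-treated and LPS-treated cells of a number came from the same mouse. The labels do not say so, and the samples were not treated as paired in the main fit. The unknown depth and 3 libraries a group limit the low members.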
